A study of Mus musculus with 6 samples.

Results

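The genes described here govern whether a muscle precursor divides or leaves the division cycle: 5 inhibitors of cyclin-dependent kinases (CDKs), 3 D cyclins and 2 pocket proteins. They were chosen by name, as every row of the deposited probe table that carries the name CDKN1A, CDKN1B, CDKN1C, CDKN2A, CDKN2C, CCND1, CCND2, CCND3, RB1 or RBL2, whatever its case, with each probe kept on its own. These are 10 of the 30854 names in the table, measured by 26 of its 45281 probes. Of the 26 probes, 18 probes of 9 genes were bright enough to be tested (a detection p under 0.05, meaning above the array's negative controls, on at least 3 of the 6 arrays), and 8 were not.

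RNA came from C2C12 myotubes, multinucleated cells formed when this mouse myoblast line is starved of growth serum. Myoblasts received 60 nM of scramble siRNA (Scramble, 3 arrays) or of an siRNA against Dj1 (siDJ-1, 3 arrays), and 48 h later went into medium with 2% horse serum for 96 h. All 6 samples were read on 1 Illumina mouse BeadChip, on which beads carrying each probe report its signal intensity. The comparison asks which of these transcripts differ in myotubes that lack much of their Dj1 mRNA. The knockdown used a single named siRNA, and nothing in the labels says whether the 3 arrays of a group are separate cultures, so that p-values measure the spread between these samples, which may be technical.

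A dividing myoblast makes D cyclins in response to serum, and with their partners Cdk4 and Cdk6 these phosphorylate the pocket proteins, which then let go of the E2F factors that drive the genes of DNA replication. During differentiation, CDK inhibitors of the Cip/Kip family (Cdkn1a, Cdkn1b, Cdkn1c) accumulate, as does Cdkn2c of the Ink4 family, to which Cdkn2a also belongs. D cyclin activity falls away and hypophosphorylated Rb1 holds E2F targets silent. In skeletal muscle this exit is normally permanent, and myotubes that lose Rb1 can start to copy their DNA again.

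Start-site sequences of 6 of the 10 genes are in the RefSeq table of GRCm38.p6, in 10 windows. Those of 2 inhibitors are printed because the results below set them apart, with Cdkn2c higher by both of its probes and Cdkn1a past the threshold by none. Each is the run of 250 bases that ends just before the outermost start, read 5′ to 3′ on the gene's own strand, from chr4:109666757-109667006 (minus strand) for Cdkn2c and from chr17:29090729-29090978 (plus strand) for Cdkn1a. Capitals mark matches to the motifs searched on both strands.
Cdkn2c: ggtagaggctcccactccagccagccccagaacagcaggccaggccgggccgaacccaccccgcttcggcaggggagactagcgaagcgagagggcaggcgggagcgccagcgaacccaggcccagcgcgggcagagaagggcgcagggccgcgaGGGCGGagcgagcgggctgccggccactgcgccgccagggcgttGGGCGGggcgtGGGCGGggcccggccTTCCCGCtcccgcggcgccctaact
Cdkn1a: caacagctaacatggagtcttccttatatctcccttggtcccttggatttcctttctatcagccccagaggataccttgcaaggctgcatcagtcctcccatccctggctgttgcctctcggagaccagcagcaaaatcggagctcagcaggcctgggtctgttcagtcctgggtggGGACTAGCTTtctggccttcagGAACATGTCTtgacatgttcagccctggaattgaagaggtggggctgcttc
The motifs were the E-box CANNTG bound by myogenic factors, its form CAGCTG (which any CANNTG search also finds), the GC box GGGCGG, the E2F core as TTCCCGC or TTGGCGC, and the p53 half-site. The Cdkn2c window held 3 GC boxes and 1 TTCCCGC, which starts 25 bases before the start, and had a GC content of 77.2%. The Cdkn1a window held none of those but 2 p53 half-sites, beginning 73 and 51 bases before the start, at a GC content of 54%. Among all 32851 windows of 250 bases in the table, 32.7% hold a GC box, 3.82% TTCCCGC, 1.97% TTGGCGC, 66.2% an E-box, 13% CAGCTG and 7.13% a p53 half-site. Neither printed window has an E-box. The inner windows differ from these, that of Cdkn1a holding 2 GC boxes and 1 E-box and that of Cdkn2c no match. The outer window of Cdkn2a, which was not called, holds 2 GC boxes and 1 TTCCCGC. Of the called genes only Cdkn2c has a window, so no comparison of called and uncalled genes can be made. A match is only a run of letters, and no binding was measured.

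The target of the siRNA was lower in every siDJ-1 sample. Dj1 is listed as Park7 with 1 probe (ILMN_2728754), with normalised log2 signals of 13.59, 13.37 and 13.63 for Scramble and of 12.48, 12.49 and 12.15 for siDJ-1. The groups did not overlap, and siDJ-1 myotubes kept 44.7% of the scramble level (log2 fold change -1.16, SE 0.14, limma adjusted p = 0.00344).

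Among the cell cycle exit genes, the inhibitors Cdkn1c and Cdkn2c and the pocket protein Rb1 were higher after Dj1 knockdown, while the D cyclin Ccnd1 was lower. In probes, 7 of the 18 tested (38.9%) had an adjusted p under 0.05, against 30.1% of all 17890 tested probes on the array, so the share of calls lies near the background of a comparison in which much of the array moved. Higher calls made up 5 of the 18 and lower calls 2, beside 16.5% and 13.6% of the array. In 14 of the 18 probes no value of one group reached the other group, where the array as a whole gives 48.5%. Over the 18 probes the median log2 fold change was -0.15, and over all tested probes it was 0.0465. The plot of log2 fold changes shows every tested probe with its interval. With siDJ-1 1 or siDJ-1 3 left out, 4 of the 18 were past the threshold, and the array's calls fell from 5387 to 2559 and 2712. When arrays were shifted to share their 75th percentile instead of being quantile-normalised, the 5 higher calls stood against 0 lower ones, where 9 of the 18 had an unadjusted p under 0.05 in limma. Over the array that shift gave 3280 higher and 2123 lower calls, against 2957 and 2430 with quantile normalisation.

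**Figure D1:**
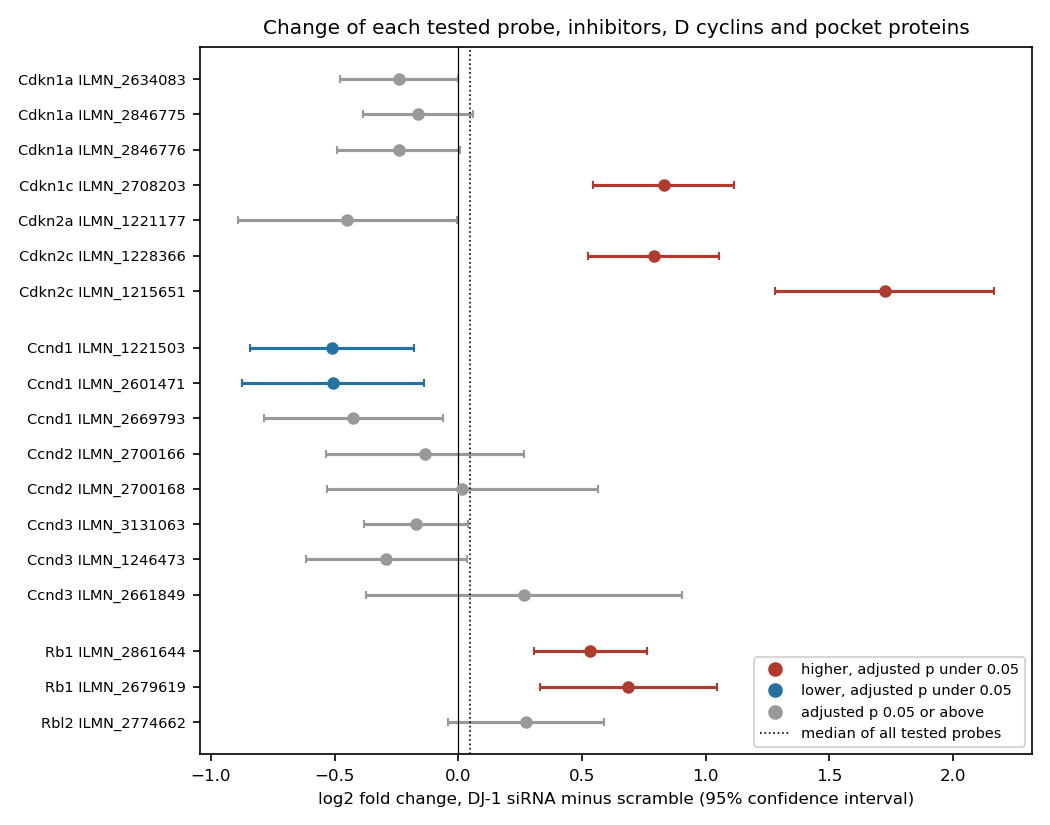
Log2 fold change (DJ-1 siRNA minus scramble, horizontal axis) of the 18 tested probes with 95% confidence intervals from limma, by role from top to bottom. The 5 probes of Cdkn1c, Cdkn2c and Rb1 that passed the threshold lie between 0.53 and 1.72, and both called Ccnd1 probes at -0.51, a fall that was past the threshold under only some of the alternatives.

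Cdkn2c, the Ink4 inhibitor that binds Cdk4 and Cdk6 and bars D cyclins from them, rose by both of its probes. The brighter probe (ILMN_1228366) read 9.24, 9.15 and 8.94 in log2 signal for Scramble and 9.94, 9.88 and 9.89 on the siDJ-1 arrays. Every siDJ-1 value lay above every Scramble value, and the siDJ-1 arrays were close to one another. Its fold was 1.73 (log2 fold change 0.79, SE 0.11, limma adjusted p = 0.00483). The second probe (ILMN_1215651) gave 5.78, 5.40 and 6.06 in scramble and 7.37, 7.37 and 7.66 in knockdown myotubes, again without overlap. It was near background, detected on 2 of 3 Scramble arrays and on all 3 siDJ-1 arrays, and its log2 fold change was 1.72 (SE 0.19, limma adjusted p = 0.00309). Without background correction that change was much smaller on the log2 scale, 0.74 with quantile normalisation and 0.73 with the shift, and stayed past the threshold. Both probes were called in each of the alternatives in which they were tested. RNA of the whole culture was measured, so more cells of a type and more RNA per cell cannot be told apart here or in any of the changes that follow.

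Cdkn1c, the Cip/Kip inhibitor that works beside Cdkn1a in differentiating muscle, was measured by 1 probe (ILMN_2708203). Its log2 signals were 10.17, 9.98 and 9.85 for Scramble against 10.75, 10.94 and 10.80 for siDJ-1. No values overlapped, and the gap between the groups exceeded the range within either. The level rose 1.78 times (log2 fold change 0.83, SE 0.12, limma adjusted p = 0.00529), and the call held in all 14 alternatives.

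Cdkn1a, the inhibitor that myogenic factors and p53 induce, gave lower readings in knockdown myotubes that did not pass the test. Its brightest probe (ILMN_2634083) read 14.05, 14.02 and 13.87 for Scramble and 13.82, 13.69 and 13.71 on the siDJ-1 arrays. A second (ILMN_2846775) read 13.33, 13.47 and 13.36 against 13.25, 13.21 and 13.21. The third (ILMN_2846776) read 12.21, 12.39 and 12.15 against 11.95, 12.02 and 12.06. For each of the 3 probes, all siDJ-1 values lay below all Scramble values, though by little. Their log2 fold changes were -0.24 (95% interval -0.48 to 0.00034), -0.16 (-0.38 to 0.06) and -0.24 (-0.49 to 0.0079). The limma adjusted p was 0.117, 0.225 and 0.126. ILMN_2634083 passed the threshold without background correction under quantile normalisation (limma adjusted p = 0.0489) and with a trend in the prior variance (0.0106), as ILMN_2846776 did with the trend (0.0238). Other scaling made the difference smaller: with the 75th percentile shift on corrected signals the log2 fold changes were -0.06, -0.01 and -0.11, at limma adjusted p of 0.674, 0.942 and 0.506. The lower readings of Cdkn1a thus depend on how the arrays are scaled. These probes read the same transcript and are not independent of one another.

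**Figure D2:**
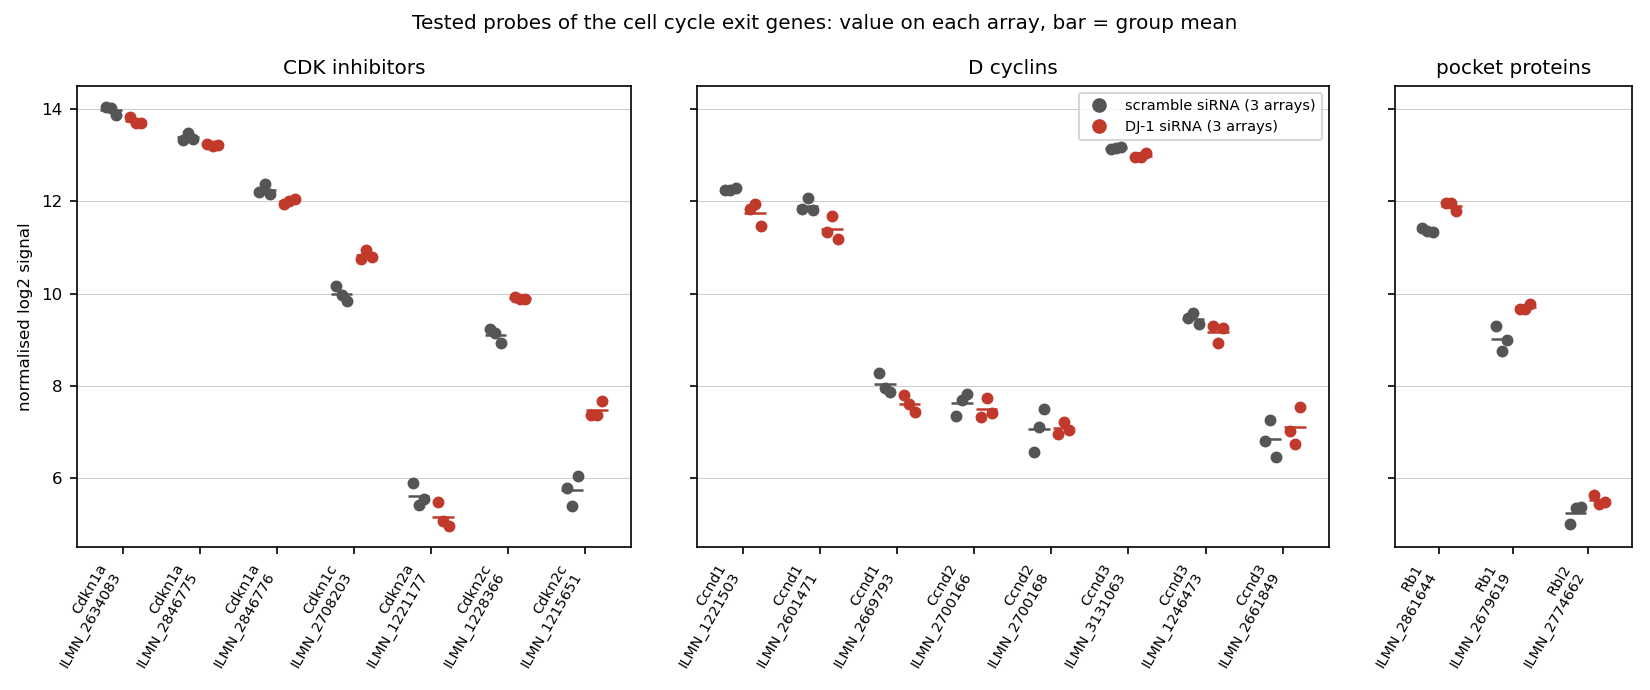
Normalised log2 signal (vertical axis) of the 18 tested probes on each of the 3 Scramble and 3 siDJ-1 arrays, with a bar at each group's mean; probes differ in how brightly they bind, so only values within a probe compare. The groups stand apart for every tested probe of Cdkn1c, Cdkn2c, Ccnd1 and Rb1. They also stand apart, with no call, for those of Cdkn1a and Rbl2 and for 2 of the 3 Ccnd3 probes. They mix for Cdkn2a and Ccnd2, where no probe passed the test.

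Cdkn2a, the locus of the Ink4a and Arf inhibitors, was at the edge of detection. One probe (ILMN_1221177) was detected on 2 Scramble arrays and 1 siDJ-1 array and read 5.89, 5.42 and 5.54 against 5.48, 5.06 and 4.96. The groups overlapped, and its log2 fold change of -0.45 (SE 0.19) had an unadjusted p of 0.0474 and an adjusted p of 0.112 in limma. Without background correction the log2 fold change was -0.15 with quantile normalisation and -0.12 with the shift. With the 75th percentile shift on corrected signals it was -0.57 (limma adjusted p = 0.0659). With the replicate number as a block the probe was called (limma adjusted p = 0.0463). Its other 2 probes were detected on no array.

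Cdkn1b, the Cip/Kip inhibitor that restrains Cdk2 in resting cells, could not be compared, since none of its 3 probes was detected on 3 arrays. ILMN_2923960 had a deposited signal of 157.7, 140.1 and 299.5 for Scramble and of 144.7, 160.7 and 131.2 on the siDJ-1 arrays. ILMN_1228598 read 115.1, 143.0 and 217.1 against 146.9, 153.2 and 125.4. Both probes stood out on Scramble 3, the only array that detected them. The third probe (ILMN_2638428) did not share this: it read 174.7, 157.3 and 137.5 against 150.6, 182.1 and 169.8, and was detected on siDJ-1 2 and siDJ-1 3. The plot of dim probes shows these signals.

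**Figure D3:**
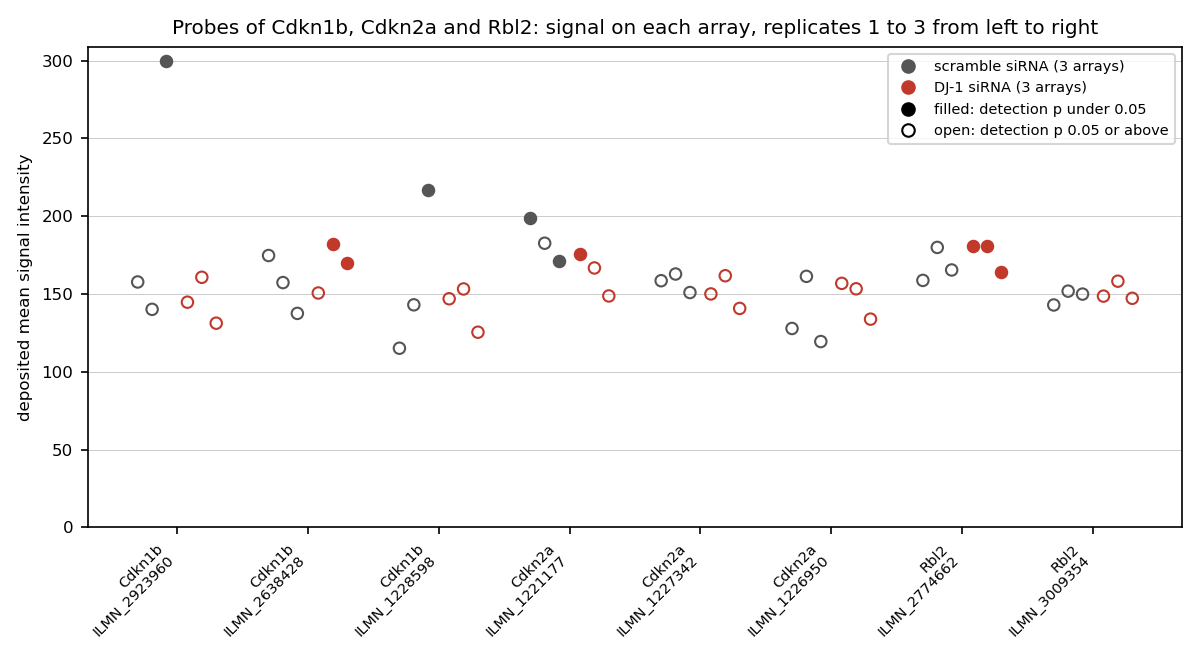
Deposited mean signal intensity (vertical axis, before background correction) of the probes of Cdkn1b, Cdkn2a and Rbl2 on each array, with filled points where the detection p was under 0.05. The signals of 299.5 and 217.1 for Cdkn1b come from the same array, Scramble 3, and most other points lie in the range of the negative controls.

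Ccnd1, the D cyclin that serum growth factors induce and that declines as myoblasts differentiate, fell by 2 of its 3 probes. Its transcript was still abundant in these cultures, with mean levels of ILMN_1221503 and ILMN_2601471 above those of 92.7% and 90.7% of tested probes. ILMN_1221503 read 12.24, 12.25 and 12.29 for Scramble and 11.83, 11.95 and 11.48 on the siDJ-1 arrays. The Scramble values were nearly equal, while siDJ-1 3 was the lowest of the 6 and siDJ-1 2 the nearest to the scramble group. The log2 fold change was -0.51 (SE 0.14, limma adjusted p = 0.0345), which left 0.702 of the scramble level. ILMN_2601471 read 11.84, 12.07 and 11.81 against 11.35, 11.68 and 11.19, with the same order of the siDJ-1 arrays and no overlap. It changed by -0.51 (SE 0.15, limma adjusted p = 0.0484). The third probe, ILMN_2669793, read 8.28, 7.96 and 7.87 against 7.80, 7.61 and 7.43 and did not pass (log2 fold change -0.42, SE 0.15, limma adjusted p = 0.0778). Both called probes were close to the threshold. When background-corrected arrays were shifted to the same 75th percentile, their adjusted p was 0.0743 and 0.101, and with no filter on dim probes 0.0764 and 0.105. With the replicate block, ILMN_1221503 missed the threshold (0.0611), ILMN_2601471 kept its call and ILMN_2669793 gained one (0.0456). ILMN_2669793 also passed with the shift on uncorrected signals (0.0413) and with the stricter filter (0.0458). Leaving out siDJ-1 2 kept both calls, and leaving out any of the other 5 arrays ended them, at a limma adjusted p of 0.0585 to 0.0824 for ILMN_1221503 and 0.0692 to 0.141 for ILMN_2601471.

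Ccnd3, the D cyclin that stays abundant in differentiated muscle cells, had 3 tested probes that disagreed in sign. ILMN_3131063 read 13.14, 13.16 and 13.17 in scramble and 12.96, 12.96 and 13.04 in knockdown myotubes. Its groups did not overlap, but the log2 fold change of -0.17 (SE 0.09) had a limma adjusted p of 0.188, which became 0.039 with the trend in the prior variance. It too depends on the scaling, with a log2 fold change of -0.04 (limma adjusted p = 0.814) under the 75th percentile shift and of -0.09 (0.438) under the shift without background correction. The remaining probes, ILMN_1246473 and ILMN_2661849, gave log2 fold changes of -0.29 (SE 0.14, limma adjusted p = 0.151) and 0.26 (SE 0.27, limma adjusted p = 0.489), and for the latter the groups overlapped. Without background correction ILMN_2661849 was at 0.13 under both scalings. Over all the alternatives it ranged from 0.05 to 0.47 and was never called.

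Ccnd2, a D cyclin of proliferating myoblasts, showed no change that the test could find. Its tested probes ranged from 7.36 to 7.83 and from 6.57 to 7.49 on the Scramble arrays, and from 7.33 to 7.73 and from 6.97 to 7.22 on the siDJ-1 arrays. The groups overlapped for both. Their 95% intervals, -0.54 to 0.26 and -0.53 to 0.56 on the log2 scale, are wide enough to hold a change of the size seen for Ccnd1. Its other 2 probes, which match mRNA entries rather than the RefSeq transcript, were detected on 1 array and on none.

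Rb1, the pocket protein that muscle cells need to stay out of the cycle, rose by both of its probes. ILMN_2861644 read 11.41, 11.36 and 11.34 for Scramble and 11.96, 11.96 and 11.80 on the siDJ-1 arrays. The values within each group lay close together and the groups did not overlap. The fold was 1.45 (log2 fold change 0.53, SE 0.10, limma adjusted p = 0.0097). ILMN_2679619 read 9.30, 8.77 and 8.99 against 9.67, 9.67 and 9.78, with more spread among the Scramble arrays and again no overlap. Its fold was 1.61 (log2 fold change 0.69, SE 0.15, limma adjusted p = 0.0173). This second call ended without siDJ-1 1 (0.0564) or without siDJ-1 3 (0.0641), whereas ILMN_2861644 kept its call with any array left out.

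Rbl2, the pocket protein that pairs with E2f4 in resting cells, was near background. ILMN_2774662 was detected on no Scramble array and on all 3 siDJ-1 arrays, so it entered the test only through the group in which it was brighter. It read 5.01, 5.35 and 5.37 against 5.63, 5.45 and 5.48. The log2 fold change was 0.27 (SE 0.13, limma adjusted p = 0.162), and taking for each Scramble array the lowest signal of any detected probe gave a ratio of at least 1.00. With the 75th percentile shift the log2 fold change was 0.13, at a limma adjusted p of 0.482. Without background correction it was 0.09 with quantile normalisation (limma adjusted p = 0.423) and 0.11 with the shift (0.348). Its other probe was detected on no array.

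By role, the inhibitors had 3 of 7 tested probes called, all higher, the D cyclins 2 of 8, both lower, and the pocket proteins 2 of 3, both higher. Over the array 30.1% of tested probes were called, 16.5% higher and 13.6% lower, and the roles hold too few probes to be set apart from it. Averaging the tested probes of each gene gave the same picture in genes. Cdkn2c (log2 fold change 1.26), Cdkn1c (0.83) and Rb1 (0.61) were higher and Ccnd1 (-0.48) lower at limma adjusted p-values of 0.00185, 0.00424, 0.00734 and 0.0263. Cdkn1a at -0.21 had an adjusted p of 0.111 in that limma fit, which called 4 of the 9 tested genes here and 4167 of 12623 over the array. The mean for Cdkn2c includes its dim probe, so its size depends on background correction. Without correction under quantile normalisation the Cdkn2c probes changed by 0.67 and 0.74, beside 0.75 for Cdkn1c.

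For the most changed called probe of each role, the tested probes with the most similar course over the 6 arrays were found from the root mean square difference of their log2 signals, each taken relative to its scramble mean. Those nearest to Cdkn2c ILMN_1215651 were probes of Mllt3, Pygl and Ttn, at 0.113, 0.113 and 0.118. Ccnd1 ILMN_1221503 lay nearest to Ryr1, Mrpl36 and Wwc2, at 0.0494, 0.053 and 0.053. Rb1 ILMN_2679619 lay nearest to Vps26c, LOC382010 and Abhd8, at 0.0459, 0.0499 and 0.0536. With most of the difference lying between the groups, likeness here is mainly a change of the same size. For Cdkn2c it holds only with background correction, since without it under quantile normalisation the dim probe changed by 0.74 and the Mllt3, Pygl and Ttn probes by 1.44, 1.16 and 1.59.

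A further list held other members of the inhibitor and pocket protein families, Cdkn2b, Cdkn2d and Rbl1, and the phosphatase gene Cdkn3. It had 4 tested probes, of which 1 was higher and 1 lower. Here and for the lists that follow, the share of calls over the array is 30.1%, with 16.5% higher and 13.6% lower. Cdkn2d, an Ink4 inhibitor like Cdkn2c, read 9.49, 9.11 and 9.42 against 10.18, 10.10 and 10.07 and rose (log2 fold change 0.78, SE 0.13, limma adjusted p = 0.00714). Of the Ink4 genes, then, Cdkn2c and Cdkn2d were higher, the dim Cdkn2a was not called and Cdkn2b was detected on no array. Cdkn3, a phosphatase that acts on CDKs and is made by dividing cells, fell from 9.40, 9.26 and 9.43 to 8.56, 8.82 and 7.72 (log2 fold change -0.997, SE 0.27, limma adjusted p = 0.0354). That fall rests on a wide spread in the siDJ-1 group: the call ended without any of the Scramble arrays or siDJ-1 1 (0.0703 to 0.0846), with no filter (0.076) and with the replicate block (0.0539).

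Of the cyclins and kinases that act with or after the D cyclins, 1 of 11 tested probes was called (9.09%). It belongs to Cdk2, the partner of cyclins E and A, and was higher by 0.38 (SE 0.10, limma adjusted p = 0.0293), but without any array other than Scramble 2 the adjusted p was 0.0552 to 0.103, with no filter 0.0679 and with the replicate block 0.0714. The other 3 tested Cdk2 probes were not called, at 0.31, 0.12 and 0.68 (limma adjusted p = 0.0926, 0.605 and 0.0533). The median of this list was 0.116, beside 0.0465 for the array. Cdk6 and Ccna1 were detected on no array.

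Among the E2F factors, their DP partners and the MuvB subunits that work with pocket proteins, 7 of 22 tested probes were called (31.8%), 2 higher and 5 lower, with a median of 0.0296. E2f2, an E2F that activates replication genes, fell by all 3 of its tested probes. Its brightest probe (ILMN_2836137) read 10.60, 11.22 and 10.85 for Scramble and 9.06, 9.31 and 9.07 on the siDJ-1 arrays. That is a log2 fold change of -1.74 (SE 0.17, limma adjusted p = 0.00295), and the others gave -1.59 and -1.51. The last of these, of the dimmer ILMN_2624477, was -0.71 without background correction under both scalings and kept its call. Tfdp1, the DP partner of the E2Fs, changed by -0.43 (SE 0.13, limma adjusted p = 0.0459), a call that only leaving out Scramble 1 kept (0.0611 to 0.131 otherwise) and that the 75th percentile shift (0.0619), no filter (0.101) and the replicate block (0.0659) ended. Rbbp4, a histone-binding protein of the MuvB core, had probes that went opposite ways: 2 rose (log2 fold changes 1.18 and 0.67), 1 fell (-1.15) and 1 was not called (-0.06), so no direction can be given for the gene. Without background correction the split of this list was 5 higher and 5 lower, and with the 75th percentile shift 3 and 4. The array had 3357 higher and 2935 lower calls without correction under quantile normalisation, and 3629 and 2662 under the shift. With correction and the 75th percentile shift it had 3280 and 2123.

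Genes that turn over the inhibitors and D cyclins had 3 of 22 tested probes called (13.6%), with a median of 0.1. Fbxo31, an F-box protein that marks cyclin D1 for destruction, rose by both of its probes, by 0.78 (SE 0.09, limma adjusted p = 0.00361) and by 0.49 (SE 0.14, limma adjusted p = 0.0429). The second of these calls ended without Scramble 2, Scramble 3, siDJ-1 1 or siDJ-1 3 (0.108 to 0.136) and with no filter (0.0942). Cul1, the scaffold of the SCF ligases that degrade Cdkn1b, fell by one probe (log2 fold change -0.81, SE 0.12, limma adjusted p = 0.0062) and its other tested probe was not called.

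The transcription factors known to act on the inhibitor genes had 4 of 11 tested probes called (36.4%), 2 in each direction, with a median of 0.153. Myod1, the myogenic factor that switches on Cdkn1a, read 10.03, 10.17 and 9.94 for Scramble and 9.09, 9.16 and 9.18 on the siDJ-1 arrays, a log2 fold change of -0.90 (SE 0.10, limma adjusted p = 0.00317). Trp53, the gene of p53, read 8.78, 9.08 and 9.11 against 8.03, 8.27 and 8.01 and changed by -0.89 (SE 0.13, limma adjusted p = 0.00583). Foxo1, a factor that growth signals hold back, rose by 1 of 2 tested probes (ILMN_2656498, log2 fold change 0.52, SE 0.10, limma adjusted p = 0.0105, and 0.051 without siDJ-1 1). Its other probe, at 0.15 with overlapping groups, was not called (limma adjusted p = 0.417). Zbtb17, which pairs with Myc at inhibitor genes, rose by 0.40 (SE 0.10, limma adjusted p = 0.0236), and its call ended without Scramble 3, siDJ-1 1 or siDJ-1 3 (0.0652 to 0.0844), with no filter (0.0548) and with the replicate block (0.0623). Under each of the other scalings and without background correction this list had 4 higher and 2 lower calls. The array's own calls moved in these fits as well. Without background correction they were 3357 higher and 2935 lower with quantile normalisation, and 3629 and 2662 with the shift. The 75th percentile shift on corrected signals gave 3280 and 2123 over the array, against 2957 and 2430 with correction and quantile normalisation.

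Genes of DNA replication and mitosis, the far end of the pathway, had 9 of 36 tested probes called (25%), 1 higher and 8 lower, with a median of -0.112. With both directions pooled, that share is below the array's 30.1%, so the list holds no excess of calls in all. Of its 9 calls 8 were lower, whereas over the array 16.5% of tested probes were higher and 13.6% lower. The thymidylate synthase gene Tyms fell by both of its tested probes, by -1.23 (SE 0.12, limma adjusted p = 0.00281) and -0.65 (SE 0.17, limma adjusted p = 0.0296; past the threshold without Scramble 1 and, without any other array, 0.0597 to 0.0967). That second Tyms probe was at -0.35 without background correction under both scalings, still called, and lost its call with no filter (0.0647) and with the replicate block (0.0537). The replication genes Mcm5 (-0.94), Cdc6 (-0.75), Pcna (-0.57) and Tk1 (-0.90) each fell by 1 probe, with limma adjusted p from 0.00736 to 0.012. The size for Cdc6 depends on background correction, being -0.41 without it with quantile normalisation and -0.42 with the shift, still called. A second tested Tk1 probe was not called (-0.49, limma adjusted p = 0.0684). Mcm3 was called at -0.92 (limma adjusted p = 0.00947), but its probe was detected on 1 siDJ-1 array and entered the test through the Scramble arrays. Near background its size is uncertain: without background correction it was -0.30 with quantile normalisation and -0.28 with the shift. Ccnb1, the mitotic cyclin B1, changed by -0.57 (SE 0.12, limma adjusted p = 0.0161; 0.0584 without siDJ-1 1 and 0.0564 without siDJ-1 3), by 1 of its 2 tested probes. The other, at -0.31 with overlapping groups, was not called (limma adjusted p = 0.166). Against these stood Cdt1, the licensing factor, which rose by 0.71 (SE 0.17, limma adjusted p = 0.0216; 0.0591 to 0.0759 without Scramble 3, siDJ-1 1 or siDJ-1 3, and 0.055 with the replicate block). The remaining 27 probes were not called. With the 75th percentile shift the split was 3 higher and 8 lower, and without background correction 3 and 9. Beside these, the array had 3280 higher and 2123 lower calls with the 75th percentile shift on corrected signals. Without background correction it had 3357 and 2935 with quantile normalisation, and 3629 and 2662 with the shift.

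**Figure D4:**
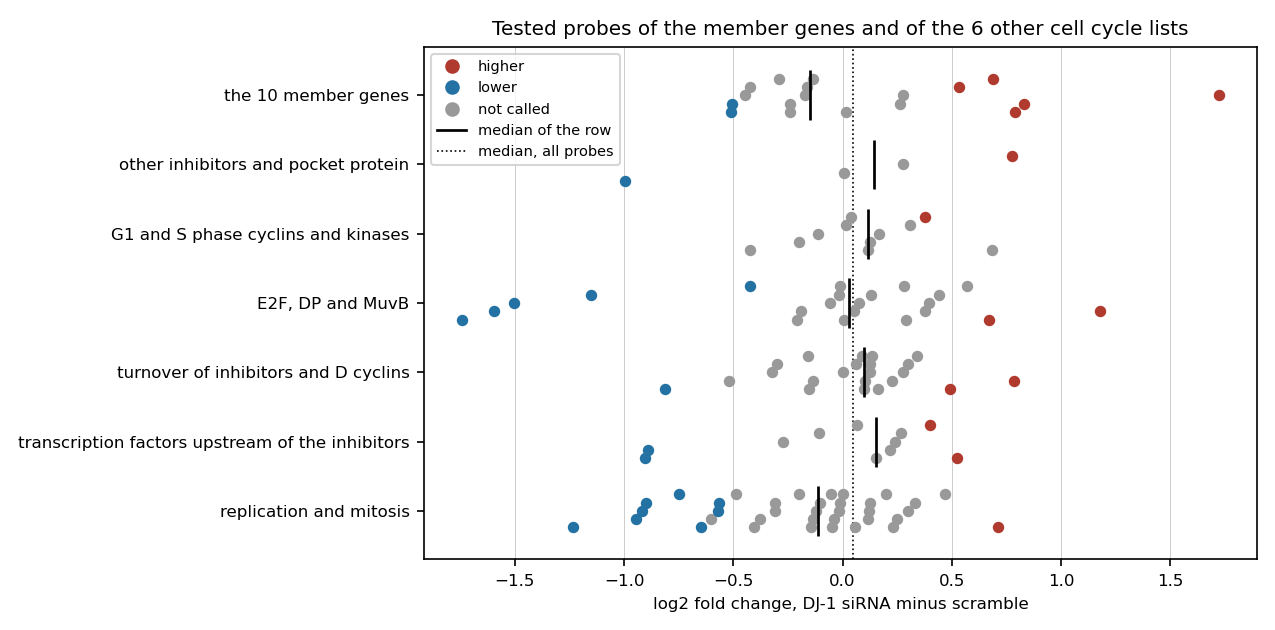
Log2 fold change (DJ-1 siRNA minus scramble, horizontal axis) of every tested probe of the 10 genes and of the 6 other lists, 1 point per probe, with a bar at each row's median and a dotted line at the median of all tested probes. Points are spread vertically only to be seen. The E2f2 probes lie farthest to the left, at -1.51 to -1.74, and the dim Cdkn2c probe farthest to the right, at 1.72.

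The cultures carried muscle transcripts throughout, with all 8 of the myotube markers examined detected on every array. In that list 2 of 11 tested probes were called, both lower: 1 of 2 probes of the myosin light chain Myl1 (log2 fold change -1.20, limma adjusted p = 0.00309) and the troponin Tnnt3 (-0.52, limma adjusted p = 0.0164; 0.0502 without siDJ-1 1 and 0.0542 without siDJ-1 3). The bright Myl1 probe (ILMN_2878542) was not called (log2 fold change -0.01, limma adjusted p = 0.947). Of the 11 tested probes 1 had a positive log2 fold change, and their median was -0.122, beside 0.0465 for the array. The summed signal of this list, in which the bright probes of Acta1, Mylpf, Tnnc1 and Myl1 had about equal parts, was 202000, 207390 and 197350 for Scramble and 187050, 190320 and 181470 on the siDJ-1 arrays. Of the 7 myoblast markers, Pax3 and Pax7 were detected on no array, and 1 of 4 tested probes was called, that of Cd34 (0.54, limma adjusted p = 0.0238, lost at 0.055 to 0.0651 without Scramble 2, Scramble 3, siDJ-1 1 or siDJ-1 2 and at 0.0532 with no filter). Hes1 went the other way without passing the test (-0.52, limma adjusted p = 0.0945), its groups not overlapping. The summed signal of this list, led by Sdc4, was 3572.9, 3650.2 and 3604.9 against 3826.5, 3917 and 3796.9. Osteoblast markers, with Runx2 and Sp7 detected on no array and Bglap2 the brightest, had 0 of 5 tested probes called in limma and 2 with an unadjusted p under 0.05, and sums of 700.4, 503.5 and 585.3 against 456.6, 550.1 and 422.8. Adipocyte markers had 3 of 3 called: Pparg higher by 1.06 (limma adjusted p = 0.0264), Cebpa at -0.63 (0.0236) and Lpl at -0.59 (0.0441), with Adipoq and Plin1 detected on no array. Pparg lost its call without Scramble 3 or any siDJ-1 array (0.0571 to 0.0916), Cebpa without Scramble 2 or any siDJ-1 array (0.057 to 0.085), and Lpl without any array but siDJ-1 2 (0.0615 to 0.115). The Cebpa probe was detected on 1 siDJ-1 array, and without background correction its log2 fold change was -0.19 with quantile normalisation and -0.18 with the shift, no longer called (limma adjusted p = 0.084 and 0.135). Cebpa also lost its call with the variance trend (0.0663), no filter (0.0519) and the replicate block (0.0511). Pparg was at 0.61 and 0.60 without background correction, still called, and lost its call with no filter (0.0567). Lpl also lost its call under the 75th percentile shift (0.0822), with no filter (0.0957) and with the replicate block (0.085). Adipocyte sums, led by Lpl, were 2181.7, 1757.5 and 2070.5 against 1496.2, 1771.1 and 1363.9. The part of these marker levels in the results for the cell cycle exit genes was not tested. Array quality differed between the groups. The median standard error over beads of all probes was 11.3, 8.3 and 8.66 signal units for Scramble and 7.17, 6.36 and 5.88 for siDJ-1, and 16985, 17399 and 18179 probes were detected against 18704, 18857 and 18408, without overlap in either. For the 26 probes the groups overlapped: their median standard error over beads was 6.22, 4.02 and 4.94% of the signal for Scramble and 4.05, 3.67 and 3.61% on the siDJ-1 arrays. The part of these differences in the results, those of the dim probes included, was not tested.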

How the data were processed

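Total RNA from 3 Scramble and 3 siDJ-1 samples of C2C12 myotubes was measured on 1 Illumina BeadChip. The authors quantified it in GenomeStudio (2011.1) and deposited, for each probe and array, the mean signal intensity, neither normalised nor background-corrected, with the standard error over beads and the number of beads. They also deposited a detection p-value per probe and array.

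From these, limma 3.58.1 in R 4.3.3 corrected background by normexp (offset 16), quantile-normalised and took log2 values (neqc). Probes whose detection p was below 0.05 on 3 or more of the 6 arrays, 17890 in all, were fitted with lmFit and eBayes, siDJ-1 against Scramble without a block, and p was adjusted by Benjamini-Hochberg over all of them (threshold 0.05). Intervals are at 95%. The number of arrays limits the precision. Symbols were updated through the RefSeq table of GRCm38.p6 for 32345 of 45281 probes, among them 24 of the 26 described. A bound for a group with no detected array sets the other group's mean against, per array, the higher of the probe's value and the lowest detected signal.

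Named were Park7, every probe of the 10 genes, the genes of each list with a called probe, and 3 nearest profiles per role; genes named as undetected, or as uncalled or bright in a list, were added after their values were seen. The members and lists were chosen with earlier results of these data known. The motifs were chosen after seeing the data. The fit was tested on simulated data, and no result above rests on that test. Alternatives changed the background correction, scaling, filter, variance prior, array weights, replicate block, arrays and probe averaging.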

Additional observations from a re-analysis of the deposited data

How the results depend on the processing

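The fall of Park7 kept its direction and its call under each alternative, at -1.24 to -1.003 on the log2 scale. Calls over the whole array numbered 3519 with no filter (45281 probes tested) against 5387, and 2559 to 5271 with an array left out. Without background correction they numbered 6292 with quantile normalisation and 6291 with the shift. The 75th percentile shift on corrected signals gave 5403, the variance trend 6470 and the replicate block 4350. Of the member probes, 4 to 7 were called with an array left out, against 7, and 4 of 9 genes after averaging probes. The list of Cdkn2b, Cdkn2d, Cdkn3 and Rbl1 had 1 call with no filter, 1 with the replicate block and 1 to 2 with an array left out, against 2. The G1 and S phase list, with 1 call, had 3 without background correction under either scaling, 2 with the 75th percentile shift and 3 with the variance trend. It had 0 with no filter and 0 with the replicate block in limma, where 3 and 2 probes had an unadjusted p under 0.05, and 0 to 2 with an array left out. The E2F list had 4 called genes after averaging, against 7 called probes, all of E2f2, Tfdp1 and Rbbp4. These counts are in unlike units and show no loss of called genes. The turnover list had 5 calls without background correction under quantile normalisation, 5 with the variance trend and 2 to 5 with an array left out, against 3. The upstream factors had 2 to 4 with an array left out, against 4. The cause of these moves was not tested, beyond that a fit without an array has fewer samples, averaging leaves fewer values and no filter adds probes at background.

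A sign changed only for Ccnd2 ILMN_2700168, whose 0.02 became -0.0028 without background correction under quantile normalisation, -0.11 with array weights and -0.23 to 0.23 with an array left out. Over the 18 member probes, 141 values under processing alternatives included 5 that lost a call and 8 that gained one, and 108 with an array left out included 12 that lost a call and 0 that gained one. The 32 called list probes lost a call in 23 of 254 and 51 of 192.

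With the replicate number as a block, 4350 probes were called, 4061 of them also called without it. Of the 7 called member probes, 6 kept their call, Ccnd1 ILMN_1221503 missing it at a limma adjusted p of 0.0611 and Ccnd1 ILMN_2669793 (0.0456) and Cdkn2a ILMN_1221177 (0.0463) gaining it. Arrays of the same number deviated together only weakly (correlations of 0.0537, 0.0474 and 0.0199), each with its own number best, a hint from the data and not the design. The strict filter left 15 member probes. Dim probes limit Cdkn1b, Cdkn2a, Rbl2 and 1 Cdkn2c probe, whose signal lies near the negative controls.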

Other observations

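The 8 probes of these genes that were too dim for the test gave no call when every probe of the array was fitted. The values were -0.95 and -0.56 on the log2 scale for the Cdkn1b probes that were bright on Scramble 3 and 0.34 for the third, with limma adjusted p of 0.528, 0.628 and 0.527. On Scramble 3 the standard error over beads of those 2 probes was 12.5% and 10.3% of their signal, over 29 and 28 beads, the highest of the 6 arrays for each. The remaining 5 probes, of Cdkn2a, Ccnd2 and Rbl2, ranged from -0.16 to 0.08.

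The opposite changes of the Rbbp4 probes came with RefSeq entries of 1 transcript in the file for 4 of 4 probes. ILMN_1230623 read 8.95, 8.42 and 8.71 for Scramble and 9.80, 9.78 and 10.04 on the siDJ-1 arrays, and ILMN_2689917 read 8.68, 8.59 and 8.73 against 7.56, 7.70 and 7.29. Both calls held with any array left out, at limma adjusted p up to 0.0221 and 0.0189.

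Among the replication genes, those with called and uncalled probes stood side by side. Mcm6 had 4 tested probes and no call, with log2 fold changes from -0.05 to 0.12 and limma adjusted p from 0.494 to 0.787. It was chosen after its values were seen.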
